A study of Homo sapiens with 40 samples.

Results

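FaDu spheroids that received epidermal growth factor (EGF) together with cetuximab were compared with FaDu spheroids that received neither. FaDu is a human squamous carcinoma line from a hypopharyngeal tumour, used here as a derivative that carries the photoconvertible protein Dendra2. The comparison was defined by the sample labels and by no measured value. It takes 8 of the 40 samples of the series, 4 spheroid samples with 9 nM EGF and 10 µg/mL cetuximab and 4 without EGF, all in type I collagen and serum-free medium for 72 h. The cell selection label of both groups reads unselected. No sample here had cetuximab without EGF, so the values describe what EGF and the antibody did together. A further 4 FaDu samples with EGF and no inhibitor hold cells that the titles call non-invasive, although their cell selection label names invasive cells, and 4 unselected samples had EGF with 100 nM AZD6244, an inhibitor of the kinase MEK. Spheroids of Kyse30, an oesophageal squamous carcinoma line, with the same EGF plus cetuximab and serum-free groups served for the test of a difference between lines. Many spheroids of a treatment were recovered from the collagen together, and their cells were sorted for RNA. The labels do not say whether the 4 samples of a group came from separate cultures, so the spread behind the p-values may be technical only.

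The libraries counted 3' ends of polyadenylated RNA. The cetuximab libraries held 3420129 to 5669262 counts and the serum-free libraries 2312126 to 4112207 (exact two-sided permutation p = 0.114, where 0.0286 is the smallest possible p with 4 against 4). Mitochondrial transcripts took 8.38 ± 1.80% of counts (SD, n = 4) with cetuximab and 15.3 ± 0.644% without EGF (exact permutation p = 0.0286). The cetuximab replicates differed more among themselves than the serum-free ones, with chi-square over degrees of freedom for pairs of libraries of 8.01 to 34.1 against 2.42 to 3.96, and the second cetuximab library stood farthest from its group. All 10 epithelial carcinoma markers were present. Of the fibroblast, leukocyte and endothelial markers only COL1A1 of 7, CD68 of 5 and CDH5 of 4 were in the table. COL1A1 stood at 6.03 to 15.5 CPM (counts per 1000000 counts of the library) with cetuximab and 16.9 to 22.4 CPM without EGF, CD68 at 1.79 to 6.93 against 0 to 1.70 CPM, and CDH5 at 0 to 0.315 against 2.27 to 5.29 CPM. The part of these 3 genes in the results was not tested.

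EGF binds the EGF receptor (EGFR), a receptor tyrosine kinase, which then activates the RAS, RAF, MEK and ERK kinase chain and the PI3K and AKT route. ERK drives transcription factors of the AP-1 and ETS families and also switches on its own inhibitors, phosphatases of the DUSP family and proteins of the Sprouty family. Squamous epithelia depend on EGFR for growth in their basal layer and lower its output as they differentiate. Cetuximab is an antibody that occupies the ligand binding domain of EGFR and is used against head and neck cancer.

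Of 12131 genes tested, 5314 (43.8%) passed an adjusted p of 0.05 in edgeR's quasi-likelihood test, 2754 of them higher (22.7%) and 2560 lower (21.1%) with EGF plus cetuximab than without EGF. Groups of 4 that did not overlap were about as frequent, in 5286 genes (43.6%). A called gene had at least 2-fold higher values in 1173 cases and at least 2-fold lower values in 1533, and 59 and 66 genes moved by 16-fold or more. The median log2 difference over all tested genes was -0.01. The counts of list members that follow are to be read against these shares, since many genes were called in either direction. The balance of the directions moved with the scaling and with the test. It was 2529 higher and 2773 lower genes under the size factors of DESeq2 and 2530 and 2768 without mitochondrial transcripts. These 2 settings moved the median to -0.06. With the scaling of the main fit kept, another test (limma-voom) called 2576 higher and 2848 lower. Without the 3 FaDu libraries that stood apart from their groups, the second cetuximab library among them, the counts were 2851 and 2952. In bulk RNA, fewer cells of a type and less RNA per cell cannot be told apart.

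The widest increases among abundant coding genes included CALB2, which encodes the calcium-binding protein calretinin. CALB2 stood at 95.9, 152, 122 and 107 CPM in the 4 cetuximab libraries and at 0, 0.235, 0.851 and 0.252 CPM in the serum-free ones, a log2 difference of 8.28 ± 0.39 (SE, adjusted p = 2.72e-14). It was near absent without EGF and abundant in every library with EGF and the antibody (log2 difference 9.10 without the third serum-free library). FST, which encodes follistatin, a secreted binder of activin, stood at 146, 176, 35.7 and 61.9 CPM against 3.68, 0.469, 0.567 and 1.26 CPM (log2 difference 6.30 ± 0.67, adjusted p = 1.23e-06). GAL, the precursor of the neuropeptide galanin, stood at 130.1, 57.7, 108 and 98.5 CPM against 3.68, 1.88, 2.55 and 1.76 CPM (log2 difference 5.38 ± 0.41, adjusted p = 2.26e-09). The groups did not overlap for either gene, which the rule that named them required. The first 2 cetuximab libraries had more FST than the other 2. Without the first serum-free library the FST difference was 7.03. NEURL1, an E3 ubiquitin ligase, had 13.2, 33.7, 8.44 and 16.2 CPM with cetuximab and a single count in all serum-free libraries together, a ratio of 233-fold (95% counting interval 41.4 to 9215). The other genes with the largest rises were SHISAL1 (105-fold (95% counting interval 28.8 to 872)), the ETS factor gene ETV4, the basal keratin gene KRT14, and HJURP, AURKB, BIRC5, SKA1 and PRR11, of which HJURP, AURKB, BIRC5 and SKA1 act at centromeres, kinetochores or the mitotic spindle.

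The widest decreases included genes with few or no counts under cetuximab. PAPSS2, which makes the sulfate donor of the cell, had 11.8, 15.2, 12.5 and 9.33 CPM without EGF and no count in any cetuximab library, and was at least 75.2-fold lower with 3 counts taken as the floor of a group. ATP6V1B1, a subunit of the proton pump, stood at 49.4, 53.3, 63.3 and 50.4 CPM without EGF and at 0, 0, 0.201 and 0.516 CPM with cetuximab (log2 difference -7.79 ± 0.52, adjusted p = 1.74e-11, and -8.93 without the fourth cetuximab library). VTCN1, which encodes the immune checkpoint ligand B7-H4, went from 22.9, 24.9, 22.4 and 30.0 CPM to 2 counts in all, a ratio of 234-fold (95% counting interval 64.2 to 1938) in favour of serum-free cells. The remaining genes of this rank were FGF1, BCAS1, MUC16, SELENOP, LY6D, VGLL1, KRT4, APOD and POU2AF3, with log2 differences from -5.93 to -5.17. FGF1, a fibroblast growth factor, had -6.67 without the third cetuximab library. MUC16 and LY6D mark the surface of differentiated epithelia, and SELENOP and APOD encode secreted carrier proteins.

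The receptor family itself was lower. EGFR stood at 496, 458, 515 and 686 CPM in the cetuximab libraries and at 1445, 1328, 1457 and 1477 CPM in the serum-free ones (log2 difference -1.41 ± 0.13, adjusted p = 1.76e-09). ERBB2, the family's partner without a ligand, stood at 52.5, 50.4, 61.7 and 52.6 CPM against 112, 122, 109.5 and 117 CPM and fell by 1.08 on the log2 scale (adjusted p = 1.78e-07). ERBB3, a receptor with little kinase activity of its own, stood at 37.8, 27.4, 39.4 and 46.1 CPM against 166, 159, 171 and 169 CPM (log2 difference -2.13 ± 0.21, adjusted p = 7.20e-09). For all 3 receptors every cetuximab library lay below every serum-free library. In EGF-treated non-invasive cells EGFR stood at 555 ± 41.1 CPM, and the difference of cetuximab minus non-invasive cells was -0.04 ± 0.13 (adjusted p = 0.893). ERBB2 and ERBB3, at 48.1 ± 3.93 and 32.1 ± 3.26 CPM there, had 0.18 ± 0.13 and 0.24 ± 0.21 (adjusted p of 0.478 and 0.566). With the MEK inhibitor EGFR stood at 997 ± 121 CPM, above the cetuximab cells (cetuximab minus MEK inhibitor -0.89 ± 0.13, adjusted p = 1.63e-05).

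Of the 7 ligand genes tested, TGFA, AREG, EREG, HBEGF and NRG1 were called higher, while EGFR, ERBB2 and ERBB3 were called lower. In the list of the receptor family, its ligands and negative regulators, 18 of 22 genes were tested, 7 were called higher and 7 lower, with a median of -0.80 against -0.01 over all genes. AREG, encoding amphiregulin, stood at 654, 548, 150.2 and 211 CPM with cetuximab against 112, 123, 118 and 123 CPM without EGF (log2 difference 1.71 ± 0.52, adjusted p = 0.0147). EREG, encoding epiregulin, stood at 559, 254, 125 and 183 CPM against 49.0, 33.1, 43.4 and 48.9 CPM (log2 difference 2.69 ± 0.57, adjusted p = 0.00123). HBEGF, encoding the heparin-binding ligand, stood at 92.1, 87.9, 27.1 and 20.6 CPM against 20.02, 13.4, 20.1 and 19.4 CPM (log2 difference 1.63 ± 0.51, adjusted p = 0.0157). All 3 were higher in the first 2 cetuximab libraries than in the other 2, and the lowest HBEGF value with cetuximab lay just above the highest without EGF. These calls leaned on the high libraries. Without the first cetuximab library AREG had 1.34 (adjusted p = 0.0585), EREG 2.10 (adjusted p = 0.00516) and HBEGF 1.27 (adjusted p = 0.0633), and without the second HBEGF had 1.35 (adjusted p = 0.0544). The count of higher members was 4 without the first cetuximab library, and also 4 without the 3 libraries that stood apart.

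TGFA, encoding transforming growth factor alpha, was more even at 26.8, 36.5, 19.7 and 28.03 CPM against 6.94, 6.80, 11.1 and 9.33 CPM (log2 difference 1.68 ± 0.21, adjusted p = 3.57e-07). NRG1, encoding neuregulin 1, the ligand of ERBB3, stood at 39.1, 62.4, 34.1 and 67.4 CPM against 6.94, 7.27, 6.53 and 7.31 CPM (log2 difference 2.85 ± 0.27, adjusted p = 1.89e-09). Neither gene had overlapping groups. The ligand genes BTC and NRG4 were not called, with -0.94 ± 0.41 and -0.88 ± 0.44 (adjusted p of 0.0606 and 0.104). In EGF-treated non-invasive cells HBEGF stood at 339 ± 83.4 CPM and was lower under cetuximab (cetuximab minus non-invasive -2.59 ± 0.47, adjusted p = 0.00205). TGFA stood at 58.7 ± 10.7 CPM there and was lower under cetuximab as well (-1.09 ± 0.19, adjusted p = 2.73e-04). AREG, EREG and NRG1 stood at 569.9 ± 82.2, 285 ± 33.1 and 32.4 ± 6.95 CPM there and did not pass the test against the cetuximab cells (-0.55 ± 0.50, -0.02 ± 0.52 and 0.64 ± 0.23, adjusted p of 0.59, 0.985 and 0.0798).

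**Figure D1:**
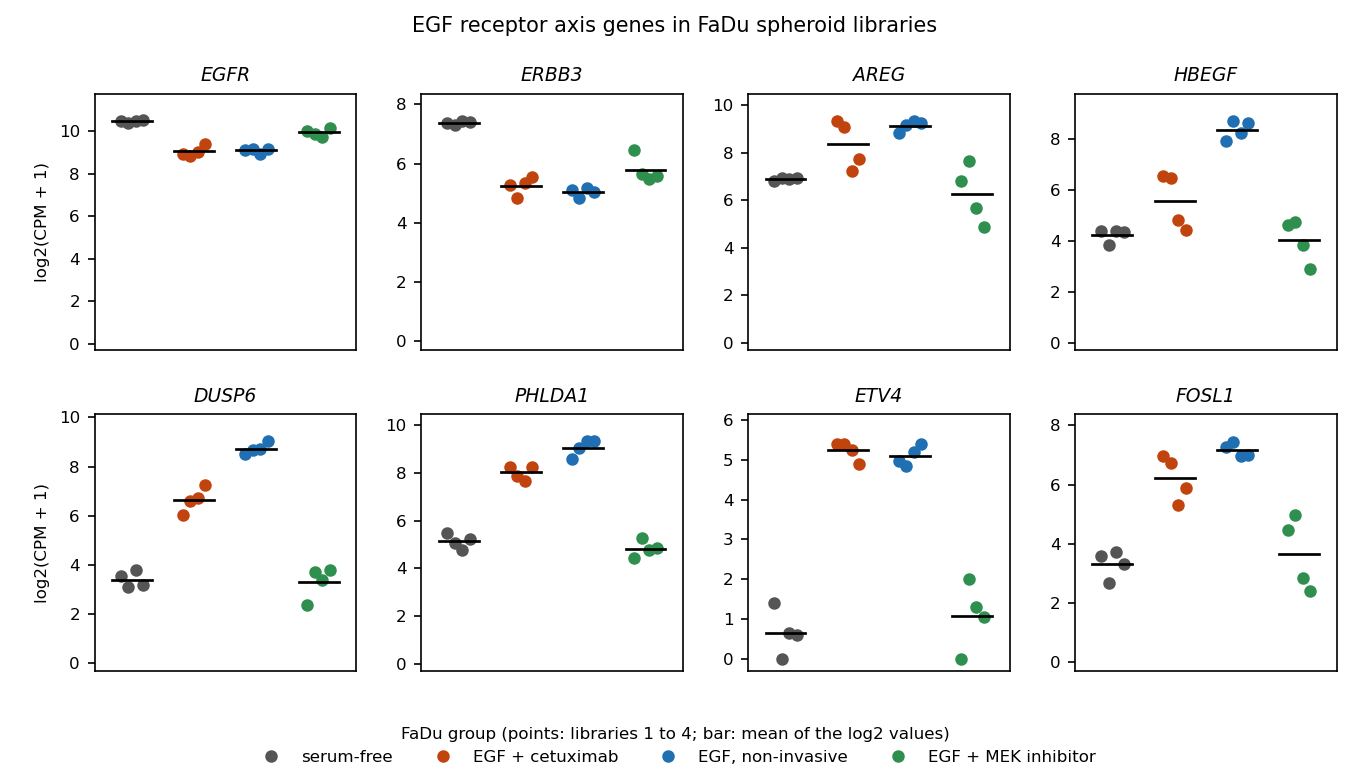
Levels of 8 genes of the EGF receptor axis in single FaDu libraries, on a log2 scale of CPM plus 1, with points for libraries and bars for group means. EGFR and ERBB3 are lower with cetuximab and in non-invasive cells than without EGF, the ligand genes AREG and HBEGF split the cetuximab libraries into 2 high and 2 low values, and DUSP6 with cetuximab lies between the serum-free and the non-invasive cells.

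Negative regulators of the receptor moved in both directions. ERRFI1, also called MIG6, a protein that binds and inhibits active EGFR, stood at 57.2, 29.3, 37.0 and 59.7 CPM with cetuximab and 17.6, 8.92, 9.08 and 11.3 CPM without EGF (log2 difference 2.01 ± 0.31, adjusted p = 1.35e-05). LRIG1, a membrane protein that promotes loss of EGFR, went the other way, from 14.7, 16.2, 17.3 and 20.7 CPM without EGF to 1.79, 0.315, 0.803 and 0.344 CPM with cetuximab (log2 difference -4.35 ± 0.54, adjusted p = 2.74e-07, and -5.03 without the first cetuximab library). Every serum-free library had many times the LRIG1 of every cetuximab library. Its relative LRIG3 had -1.91 ± 0.56 and the cytokine feedback gene SOCS3 -2.01 ± 0.59, both called lower.

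Most ERK output genes were higher under cetuximab than without EGF. Of 21 genes of ERK output and feedback, 15 were called higher and 1 lower (EPHA4, an ephrin receptor), with a median log2 difference of 1.79. DUSP6, the phosphatase that inactivates ERK, stood at 64.4, 96.1, 104 and 153 CPM with cetuximab and 10.6, 7.51, 12.8 and 8.07 CPM without EGF (log2 difference 3.44 ± 0.32, adjusted p = 4.30e-08). ETV4, an ETS family factor switched on by ERK, stood at 41.1, 41.3, 37.2 and 28.7 CPM against 1.63, 0, 0.567 and 0.504 CPM (log2 difference 5.94 ± 0.45, adjusted p = 5.62e-11, and 6.64 without the first serum-free library). ETV5, its close relative, stood at 37.5, 38.4, 51.0 and 31.1 CPM against 1.23, 3.28, 1.42 and 2.27 CPM (log2 difference 4.18 ± 0.36, adjusted p = 4.99e-10). For these 3 genes the lowest cetuximab library was several times the highest serum-free one. PHLDA1, a nuclear protein induced by growth factors, stood at 305, 236, 203 and 303 CPM against 44.1, 32.4, 26.4 and 36.8 CPM (log2 difference 2.91 ± 0.22, adjusted p = 1.51e-10). SPRY4, a Sprouty inhibitor, had 6.93, 4.73, 1.81 and 3.78 CPM with cetuximab and no count without EGF, at least 20.4-fold higher with the same floor. CCND1, encoding the G1 cyclin D1, stood at 545, 499, 564 and 455 CPM against 257, 226, 226 and 247 CPM (log2 difference 1.11 ± 0.11, adjusted p = 5.26e-09). CCND1 was already abundant without EGF, whereas ETV4 and SPRY4 were at or near 0. EPHA2, another ephrin receptor, stood at 57.2, 29.9, 16.5 and 35.4 CPM against 6.94, 6.57, 17.0 and 7.56 CPM, so that the third serum-free library reached above the lowest cetuximab library (log2 difference 1.86 ± 0.48, adjusted p = 0.00393).

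Some of these genes stood lower under cetuximab than in cells with EGF alone and others did not pass that test. ETV4 and ETV5 stood at 33.7 ± 6.04 and 31.8 ± 4.51 CPM in non-invasive EGF-treated cells, and CCND1 at 528 ± 27.3 CPM, with differences of cetuximab minus non-invasive cells of 0.13 ± 0.28, 0.31 ± 0.27 and -0.03 ± 0.11 (adjusted p of 0.835, 0.552 and 0.898). These 3 differences did not pass the test. DUSP6 stood at 427 ± 65.5 CPM and PHLDA1 at 545 ± 124 CPM there, and both were lower under cetuximab (-2.03 ± 0.27, adjusted p = 4.36e-05, and -1.06 ± 0.20, adjusted p = 8.94e-04). Over the list 4 of 21 genes were called lower and 0 higher than in non-invasive cells, where 4.93% and 3.64% of all genes were. With the MEK inhibitor DUSP6 stood at 9.68 ± 3.91 CPM, PHLDA1 at 27.9 ± 7.01 CPM and ETV4 at 1.38 ± 1.24 CPM, within or beside the range of the serum-free libraries. Against that group 14 of 21 genes were called higher under cetuximab and 0 lower, with 11.2% of all genes called higher. The EGF samples were divided into invasive and non-invasive cells and the cetuximab samples were not, so cell selection and treatment cannot be told apart in the first of these contrasts.

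AP-1 and immediate early genes, which growth factors switch on first and briefly, were mostly lower or not called. FOSL1, the late AP-1 subunit FRA1, stood at 123, 106, 38.2 and 58.6 CPM with cetuximab and 11.03, 5.40, 12.2 and 8.82 CPM without EGF (log2 difference 3.14 ± 0.51, adjusted p = 1.00e-04), again higher in the first 2 cetuximab libraries. It was the one member of 19 called higher (2 without the third cetuximab library), while 10 were called lower and the median was -0.67. JUN stood at 768, 533, 326 and 543 CPM against 1203, 1165, 1160.4 and 1229 CPM (log2 difference -1.13 ± 0.22, adjusted p = 2.42e-04). FOS, its partner in AP-1, stood at 49.8, 38.8, 58.0 and 156 CPM against 392, 331.97, 369 and 339 CPM (log2 difference -2.23 ± 0.42, adjusted p = 3.79e-04, and -2.86 without the fourth cetuximab library). Serum-free cells held more JUN and FOS in every library. EGR2, a zinc finger factor, stood at 4.92, 2.84, 4.42 and 4.47 CPM against 29.0, 19.9, 27.8 and 27.7 CPM (log2 difference -2.62 ± 0.42, adjusted p = 1.42e-05). IER2, an immediate early regulator, had -0.67 ± 0.14 (adjusted p = 3.45e-04). MYC had a log2 difference of -0.02 ± 0.46 (adjusted p = 0.98) and EGR1 one of -0.58 ± 0.24 (adjusted p = 0.0565), and neither passed the test.

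Cell cycle genes rose together. All 24 genes of the DNA replication list were called higher, with a median log2 difference of 2.73, and so were all 22 genes of mitosis and G2/M, with a median of 3.76. CDC6, which loads the replicative helicase, stood at 76.2, 112, 63.7 and 64.0 CPM with cetuximab and 2.04, 3.75, 2.84 and 5.55 CPM without EGF (log2 difference 4.41 ± 0.24, adjusted p = 8.81e-14). RRM2, the ribonucleotide reductase subunit that supplies deoxynucleotides, stood at 53.4, 57.7, 41.8 and 49.0 CPM against 2.45, 5.87, 1.70 and 2.77 CPM (log2 difference 3.91 ± 0.28, adjusted p = 1.49e-11). MCM4, a subunit of the helicase, stood at 467, 658, 374 and 313 CPM against 83.3, 87.5, 77.5 and 79.9 CPM (log2 difference 2.46 ± 0.19, adjusted p = 1.18e-10). The second cetuximab library was highest for all 3 genes, and no groups overlapped.

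Mitosis genes had the wider rises. CDC20, the activator of the anaphase-promoting complex, stood at 97.4, 157, 129.5 and 109 CPM against 5.31, 3.99, 3.12 and 6.81 CPM (log2 difference 4.67 ± 0.21, adjusted p = 5.74e-15). BIRC5, encoding survivin, stood at 209, 199, 231 and 244 CPM against 8.58, 8.45, 9.08 and 4.03 CPM (log2 difference 4.88 ± 0.24, adjusted p = 2.72e-14). UBE2C, the ubiquitin-conjugating enzyme of mitotic exit, stood at 99.7, 84.7, 98.2 and 80.6 CPM against 4.90, 5.63, 5.67 and 3.53 CPM (log2 difference 4.19 ± 0.21, adjusted p = 2.72e-14). The cetuximab libraries lay close together for these genes, unlike for the ligands. MKI67, the proliferation marker Ki-67, stood at 409, 737, 446 and 436 CPM against 30.6, 25.6, 23.8 and 28.5 CPM (log2 difference 4.23 ± 0.24, adjusted p = 1.13e-12). CENPF, a kinetochore protein, stood at 519, 746, 592 and 621 CPM against 56.8, 64.8, 62.4 and 59.99 CPM (log2 difference 3.34 ± 0.17, adjusted p = 4.04e-14). FOXM1, a factor that drives G2/M genes, stood at 74.0, 82.9, 80.5 and 65.3 CPM against 4.49, 4.93, 3.97 and 7.56 CPM (log2 difference 3.82 ± 0.25, adjusted p = 2.39e-12).

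No gene of these lists was called lower than in cells with EGF alone. Against non-invasive EGF-treated cells 5 of 22 mitosis genes and 2 of 24 replication genes were called higher under cetuximab. Only 1 replication gene was without the second, the third or the fourth cetuximab library or the fourth non-invasive one. CENPF stood at 339 ± 31.6 CPM and FOXM1 at 44.1 ± 5.08 CPM in the non-invasive cells (cetuximab minus non-invasive 0.87 ± 0.16, adjusted p = 4.32e-04, and 0.78 ± 0.20, adjusted p = 0.0135). FOXM1 lost that call without the third cetuximab library (adjusted p = 0.0544) and without the fourth non-invasive library (adjusted p = 0.0605). CDC6 stood at 73.8 ± 10.7 CPM in the non-invasive cells and did not pass (0.09 ± 0.18, adjusted p = 0.83). With the MEK inhibitor CDC6 stood at 27.5 ± 2.92 CPM and CDC20 at 73.0 ± 8.06 CPM. There 19 of 24 replication genes and 18 of 22 mitosis genes were called higher under cetuximab (medians 1.03 and 0.78).

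Promoters of the replication genes are shown because these genes rose as a whole list and because E2F factors are the textbook regulators of S-phase genes. RefSeq (GRCh38.p14) gave a promoter for 20 of the 24 genes. In the 250 bases before the start, 10 of the 20 (50%) held TTTGGCGC, TTTCCCGC or TTTCGCGC, the E2F words searched, on either strand, against 2.38% of 27305 promoters. The 10 genes were CDT1, E2F1, GINS2, MCM3, MCM6, MCM7, PCNA, POLA1, TYMS and UHRF1. The other 10 did not hold these letters in this window, and promoters of the same base composition were not compared. The lines below give the 250 bases before the start of the 3 genes with a match and the smallest p, in gene orientation, with the match in capitals.
GINS2 (chr16:85688955-85689204, minus strand): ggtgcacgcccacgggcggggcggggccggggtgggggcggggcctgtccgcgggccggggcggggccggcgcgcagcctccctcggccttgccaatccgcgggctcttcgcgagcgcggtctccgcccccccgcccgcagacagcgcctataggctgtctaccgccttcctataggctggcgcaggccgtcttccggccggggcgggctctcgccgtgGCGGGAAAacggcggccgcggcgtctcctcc
CDT1 (chr16:88803539-88803788, plus strand): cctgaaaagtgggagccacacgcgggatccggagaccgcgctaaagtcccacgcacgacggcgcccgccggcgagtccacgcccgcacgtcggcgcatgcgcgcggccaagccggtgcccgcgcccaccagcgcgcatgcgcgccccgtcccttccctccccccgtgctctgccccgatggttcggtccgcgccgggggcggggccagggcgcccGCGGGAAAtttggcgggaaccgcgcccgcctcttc
TYMS (chr18:657403-657652, plus strand): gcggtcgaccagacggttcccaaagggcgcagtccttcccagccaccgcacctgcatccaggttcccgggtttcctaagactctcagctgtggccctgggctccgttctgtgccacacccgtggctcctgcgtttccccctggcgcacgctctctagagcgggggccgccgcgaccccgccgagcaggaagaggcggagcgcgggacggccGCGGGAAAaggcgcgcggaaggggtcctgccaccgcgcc
In all 3 the match is GCGGGAAA, the reverse complement of TTTCCCGC, and it begins 31, 35 and 39 bases before the start of GINS2, CDT1 and TYMS. A match of letters is a description and shows no binding. GINS2, a subunit of the helicase complex, stood at 54.8, 78.1, 51.2 and 49.2 CPM with cetuximab and 2.04, 7.51, 4.82 and 4.79 CPM without EGF (log2 difference 3.53 ± 0.28). CDT1, the licensing factor, stood at 37.5, 57.3, 38.8 and 31.6 CPM against 3.27, 5.16, 1.70 and 5.04 CPM (3.39 ± 0.27). TYMS, thymidylate synthase, stood at 27.5, 46.0, 24.9 and 30.4 CPM against 2.04, 3.75, 4.82 and 1.76 CPM (3.33 ± 0.29). Genes without a match rose as well. AP-1 sites (TGANTCA, both strands) were in the promoters of 3 of 11 protease and inhibitor genes (27.3%, against 6.60% of all promoters), and those 3, MMP10, PLAUR and SERPINB2, were not called. Both serum response element words searched were in none of these promoters and in 0.0623% of all.

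Genes that hold cells out of the cycle fell in part. Of 20 inhibitors and quiescence genes 10 were called lower and 0 higher, with a median of -1.04. GADD45B, a stress and growth arrest gene, stood at 22.1, 12.9, 26.3 and 27.5 CPM with cetuximab and 165, 174, 175 and 165 CPM without EGF (log2 difference -2.91 ± 0.24, adjusted p = 2.76e-10). CDKN1C, encoding the inhibitor p57, stood at 6.03, 7.25, 10.0 and 16.3 CPM against 32.7, 40.8, 32.9 and 34.0 CPM (log2 difference -1.80 ± 0.26, adjusted p = 3.79e-06). BTG1 and MXD4, an antiproliferative gene and an antagonist of MYC, had log2 differences of -1.13 ± 0.14 and -1.39 ± 0.15. Both were also lower than in non-invasive cells (-0.73 ± 0.14 and -0.58 ± 0.15, adjusted p of 8.23e-04 and 0.0124), though MXD4 not without the third non-invasive library (adjusted p = 0.057). CDKN1A, encoding p21, had 0.64 ± 0.42 and was not called (adjusted p = 0.237), but was without the third cetuximab library (0.94, adjusted p = 0.0369).

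Growth and biosynthesis genes rose with the cycle. All 30 genes of ribosome biogenesis were called higher, with a median of 1.12. LYAR, a nucleolar factor, stood at 187, 275, 184 and 116 CPM against 35.1, 48.6, 27.2 and 35.3 CPM (log2 difference 2.37 ± 0.22, adjusted p = 6.11e-09). FBL, encoding fibrillarin, stood at 753, 1174, 740.1 and 621 CPM against 270.4, 295, 292 and 297 CPM (log2 difference 1.51 ± 0.16, adjusted p = 2.56e-08). NOLC1 and NPM1, nucleolar chaperones of ribosome assembly, had 1.61 ± 0.15 and 1.12 ± 0.11. The protein components of the cytoplasmic ribosome changed less, 38 of 58 called higher and 0 lower with a median of 0.36. With mitochondrial transcripts left out, 30 were called higher and 0 lower. RPL12 and RPS2 had 1.37 ± 0.12 and 1.36 ± 0.16, whereas RPLP1, at 4314, 4597, 4886 and 4591 CPM against 5012, 4738, 4920.3 and 4819 CPM, had -0.08 ± 0.10 and was not called (adjusted p = 0.512). Reads of ribosomal protein genes can be split with their many pseudogenes, so single values are uncertain. None of the 30 ribosome biogenesis genes was called against non-invasive cells, and 14 were higher than with the MEK inhibitor, or 9 without the third or the fourth library of that group.

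Of 19 glycolysis genes 13 were called higher and 0 lower (median 1.14). ENO1, encoding enolase, stood at 1715, 2372, 1770.4 and 1861 CPM against 635, 761, 702 and 707 CPM (log2 difference 1.46 ± 0.15, adjusted p = 9.87e-09). SLC16A1, the lactate carrier MCT1, stood at 1111, 1114, 856 and 808 CPM against 368, 373, 382 and 372 CPM (log2 difference 1.38 ± 0.12, adjusted p = 9.36e-10). The groups stood well apart for both. GAPDH, often used as a reference gene, rose as well, from 1870.5 ± 65.3 to 4751 ± 879.6 CPM (log2 difference 1.34 ± 0.15, adjusted p = 2.95e-08). HK2, encoding hexokinase 2, stood at 41.6, 7.56, 33.7 and 62.8 CPM against 6.54, 6.10, 9.65 and 8.57 CPM (log2 difference 2.25 ± 0.52, adjusted p = 0.00197), and its second cetuximab library lay within the serum-free range. Among hypoxia response genes 8 of 21 were called higher and 1 lower, or 42.9% called, a share close to the 43.8% of all genes. Without the fourth cetuximab library 2 were called lower. VEGFA, the vessel growth factor, rose by 0.91 and P4HA1, a collagen hydroxylase, by 0.91. ADM, encoding adrenomedullin, was the gene called lower and fell to 33.6 ± 8.27 from 106 ± 11.5 CPM (log2 difference -1.66 ± 0.27, adjusted p = 3.42e-05).

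Sterol and fatty acid synthesis showed 25 of 32 genes called higher and 1 lower (PMVK, a kinase of the mevalonate route), with a median of 1.22. ELOVL6, an elongase of fatty acids, stood at 38.4, 70.6, 53.4 and 60.01 CPM against 13.1, 10.6, 13.6 and 11.6 CPM (log2 difference 2.19 ± 0.22, adjusted p = 8.67e-09), with no overlap of the groups. DHCR7 and EBP, late enzymes of cholesterol synthesis, had 1.80 ± 0.18 and 1.69 ± 0.16. In this list 1 member was higher and 1 lower than in non-invasive cells, near the 3.64% and 4.93% of all genes. Than with the MEK inhibitor, 2 members were higher and 1 lower, where 11.2% and 8.54% of all genes were. The 2 counts against the MEK inhibitor moved between 1 and 6 and between 0 and 2 when single libraries were left out, with 6 without the first cetuximab library.

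Chaperonins and folding genes followed. Of 17 heat shock and chaperonin genes 11 were higher and 2 lower, HSPA1B and HSPB1. HSPD1, the mitochondrial chaperonin, stood at 849.7, 938, 793 and 885 CPM against 268, 325, 269 and 316 CPM (log2 difference 1.55 ± 0.12, adjusted p = 6.67e-11). HSPB1, the small heat shock protein HSP27, stood at 312, 284, 219.5 and 279 CPM against 1253, 1326, 1346 and 1319 CPM (log2 difference -2.26 ± 0.13, adjusted p = 1.28e-13). So HSPB1, abundant without EGF, went against most of its list. In the ATF4 and unfolded protein list 15 of 24 were higher and 2 lower, or 1 lower without the third or the fourth cetuximab library or the first serum-free one. PSAT1, an enzyme of serine synthesis, stood at 92.3, 55.4, 71.1 and 54.7 CPM against 18.8, 21.6, 16.7 and 14.9 CPM (log2 difference 1.93 ± 0.24, adjusted p = 4.10e-07). SLC7A11, the cystine carrier, stood at 322, 245, 299.9 and 269 CPM against 129.9, 118, 117 and 127 CPM (log2 difference 1.20 ± 0.12, adjusted p = 1.18e-08). The 13 mitochondrially encoded subunit genes split, 2 called higher and 5 lower. MT-CO2, a subunit of cytochrome oxidase, stood at 4066, 3265, 3210.5 and 3794 CPM against 8062, 9371, 9794 and 8947 CPM (log2 difference -1.34 ± 0.16, adjusted p = 2.46e-07), beside the lower mitochondrial share given above. Without the second cetuximab library 8 of these 13 genes were called lower and 0 higher, and without the first or the third serum-free library 1 was higher. MT-CO3, another subunit, had -0.86 ± 0.18 and MT-CYB, a subunit of complex III, -0.95 ± 0.21.

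**Figure D2:**
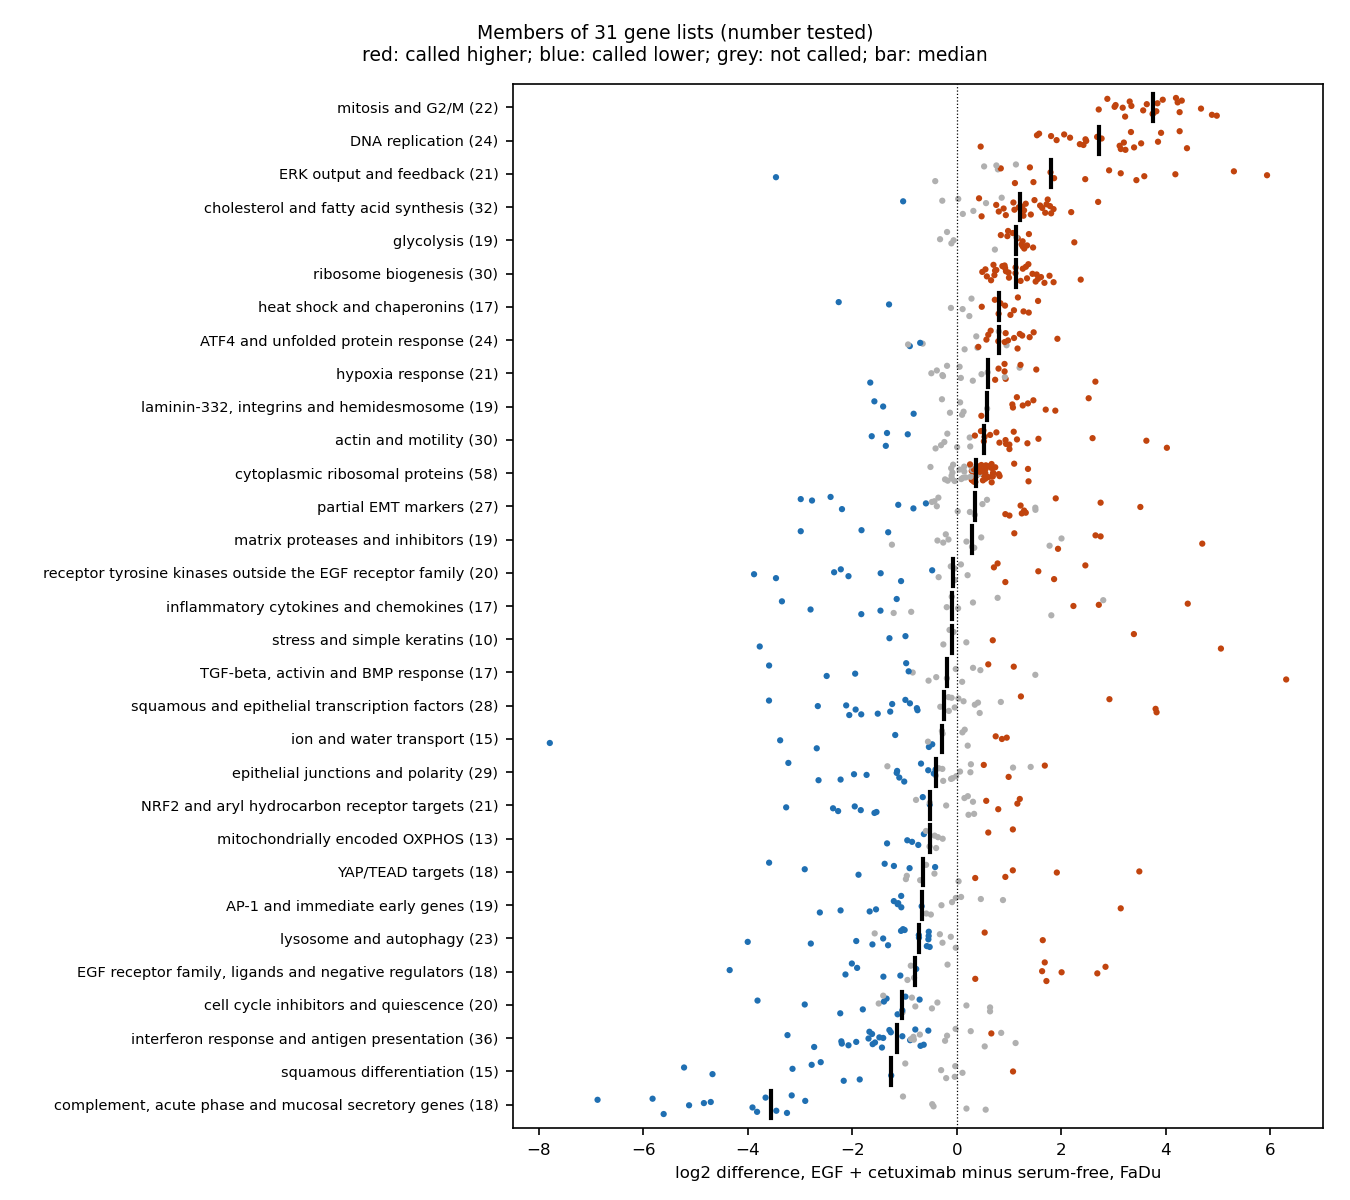
Log2 difference of EGF plus cetuximab minus serum-free for each tested member of 31 gene lists in FaDu, 1 row per list, with called members in colour, other members in grey and the list median as a black bar. OAS2, SPRY4 and XAF1, each with no count in 1 of the groups, are left out of the points. All members of the DNA replication, mitosis and ribosome biogenesis lists lie right of 0, and most complement, lysosome and antigen presentation members lie left of 0.

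Matrix contact genes rose in part of their lists. In the laminin-332, integrin and hemidesmosome list 10 of 19 were called higher and 3 lower (median 0.58). ITGA2, a collagen receptor subunit, stood at 65.7, 74.0, 39.6 and 52.8 CPM against 21.2, 13.8, 15.0 and 13.4 CPM (log2 difference 1.89 ± 0.23, adjusted p = 2.52e-07). ITGA3, which binds laminin-332, stood at 229.5, 362, 207 and 294 CPM against 79.7, 81.6, 88.8 and 85.5 CPM (log2 difference 1.70 ± 0.17, adjusted p = 8.11e-09). Both genes had no overlap between groups, and the second cetuximab library was highest for each. ITGAV, a subunit of fibronectin and vitronectin receptors, fell from 64.4 ± 3.28 to 24.1 ± 3.99 CPM (log2 difference -1.41 ± 0.19, adjusted p = 7.50e-07). ITGA2 stood higher still in non-invasive EGF cells, at 195 ± 38.8 CPM (cetuximab minus non-invasive -1.76 ± 0.21, adjusted p = 2.00e-06), while ITGA3 at 291 ± 32.4 CPM did not pass (-0.09 ± 0.16, adjusted p = 0.807).

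Actin and motility genes were called higher in 19 of 30 cases and lower in 4 (median 0.52). ANLN and DIAPH3, which act in cytokinesis, had 4.02 ± 0.22 and 3.63 ± 0.22. FSCN1, encoding the actin bundler fascin, stood at 266, 337, 260.1 and 268 CPM against 49.4, 42.9, 47.4 and 47.1 CPM (log2 difference 2.60 ± 0.14, adjusted p = 4.18e-14). TPM1, a tropomyosin, fell from 257 ± 2.39 to 102 ± 22.3 CPM (log2 difference -1.34 ± 0.16, adjusted p = 1.88e-07). Against non-invasive cells 14 members of this list were called lower and 0 higher, and against the MEK inhibitor 10 were higher and 3 lower.

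Markers of a partial epithelial-mesenchymal transition moved both ways, 9 of 27 higher and 7 lower (median 0.34). LGALS1, encoding galectin-1, stood at 646, 1527, 601 and 1337 CPM against 91.9, 82.1, 91.4 and 94.8 CPM (log2 difference 3.51 ± 0.32, adjusted p = 9.17e-08). The LGALS1 values of the 4 cetuximab libraries spread widely but none came near the serum-free ones. TIMP3, an inhibitor of metalloproteases, fell to 7.15, 5.99, 4.42 and 5.67 CPM from 42.5, 41.1, 51.6 and 49.2 CPM (log2 difference -2.99 ± 0.37, adjusted p = 3.07e-07). CAV1, encoding caveolin-1, stood at 1663, 1392, 1807 and 1654 CPM against 687, 660.2, 719.8 and 686 CPM (log2 difference 1.24 ± 0.15, adjusted p = 1.06e-07). It was higher than in non-invasive cells, where it stood at 995 ± 107 CPM (0.71 ± 0.14, adjusted p = 0.0015). The count of lower members was 4 without the second or the third cetuximab library or the second serum-free library. VIM, TNC and 3 more members were not tested, being below the filter on low counts or not analysed here.

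Among matrix proteases and their inhibitors 5 of 19 were called higher and 3 lower, a share close to that of all genes. SERPINE2, a protease inhibitor, stood at 19.9, 16.7, 14.5 and 14.1 CPM against 1.23, 3.75, 1.99 and 2.77 CPM (log2 difference 2.65 ± 0.31, adjusted p = 1.02e-07). TMPRSS4, a membrane serine protease, stood at 8.05, 6.62, 7.83 and 6.88 CPM against 16.3, 26.7, 28.4 and 32.5 CPM (log2 difference -1.82 ± 0.29, adjusted p = 1.33e-05). MMP1, the interstitial collagenase, had 8.27, 7.56, 2.81 and 0.344 CPM with cetuximab and 2 counts in all without EGF, a ratio of 29.6-fold (95% counting interval 7.93 to 249) (adjusted p = 0.00596). Both counts lay in the fourth serum-free library, at 0.504 CPM and above the lowest cetuximab library, so the groups overlapped. PLAUR, the urokinase receptor, showed 58.3, 4.73, 2.41 and 6.02 CPM against 4.90, 5.40, 4.26 and 3.28 CPM, so the first cetuximab library alone stood high and the gene was not called (adjusted p = 0.0801; 0.0305 without the third cetuximab library). MMP1 stood at 76.2 ± 23.7 CPM and TIMP1, an inhibitor of metalloproteases, at 503 ± 72.6 CPM in non-invasive EGF cells, above their 4.75 ± 3.81 and 128 ± 33.0 CPM under cetuximab (cetuximab minus non-invasive -4.10 ± 0.54, adjusted p = 7.49e-05, and -1.98 ± 0.17, adjusted p = 1.36e-08). In that contrast 8 list members were called lower and 1 higher.

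Of 32 genes of squamous differentiation 15 were tested. Among these 8 were called lower, 1 higher (KLK6, a kallikrein) and 6 were not called. IVL, SPRR1A, SPRR1B and SPRR3 were not tested, being below the filter on low counts. KRT4, a keratin of suprabasal mucosa, stood at 12.7, 11.3, 14.3 and 2.58 CPM with cetuximab and 359, 401, 364 and 376 CPM without EGF (log2 difference -5.22 ± 0.47, adjusted p = 1.03e-07). KRT13, its pairing partner, stood at 31.7, 21.7, 24.9 and 7.91 CPM against 192, 185, 192 and 189 CPM (log2 difference -3.15 ± 0.47, adjusted p = 3.64e-05). Serum-free libraries were high and alike, and the fourth cetuximab library was lowest for both. KLK11, a secreted kallikrein protease, stood at 0.894, 0.630, 0.603 and 1.55 CPM against 23.7, 31.9, 19.6 and 25.5 CPM (log2 difference -4.68 ± 0.54, adjusted p = 7.52e-08). In non-invasive EGF cells KRT4 and KRT13 were lower again, at 0.649 ± 0.608 and 1.11 ± 0.625 CPM (cetuximab minus non-invasive 3.92 ± 0.76, adjusted p = 0.00304, and 4.25 ± 0.69, adjusted p = 7.00e-04). Without the fourth non-invasive library KRT4 had 4.62. With the MEK inhibitor the pair stood at 80.0 ± 44.6 and 75.6 ± 44.7 CPM. KRT15, a keratin of resting basal cells, fell from 903 ± 26.9 to 66.3 ± 16.2 CPM (log2 difference -3.77 ± 0.30, adjusted p = 9.46e-09), and KRT14, the keratin of dividing basal cells, rose from 0, 0.235, 0 and 0.756 CPM to 12.1, 12.3, 6.23 and 10.7 CPM (log2 difference 5.05 ± 0.72, adjusted p = 2.47e-06, and 6.33 without the fourth serum-free library). Keratins thus moved in both directions, 3 of 10 tested genes of the stress and simple keratin list higher and 3 lower. KRT5, far more abundant than KRT14, was among the lower ones, at 132 to 643 CPM with cetuximab against 687 to 885 CPM without EGF (log2 difference -0.98 ± 0.32, adjusted p = 0.0194). KRT19 fell to 668 ± 142 from 1634 ± 63.6 CPM and KRT18 rose to 1710.1 ± 633 from 1061 ± 29.7 CPM (log2 differences -1.29 ± 0.17 and 0.69 ± 0.16). Near-identical keratin genes and pseudogenes can share reads, which makes KRT14 and KRT18 less certain.

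**Figure D3:**
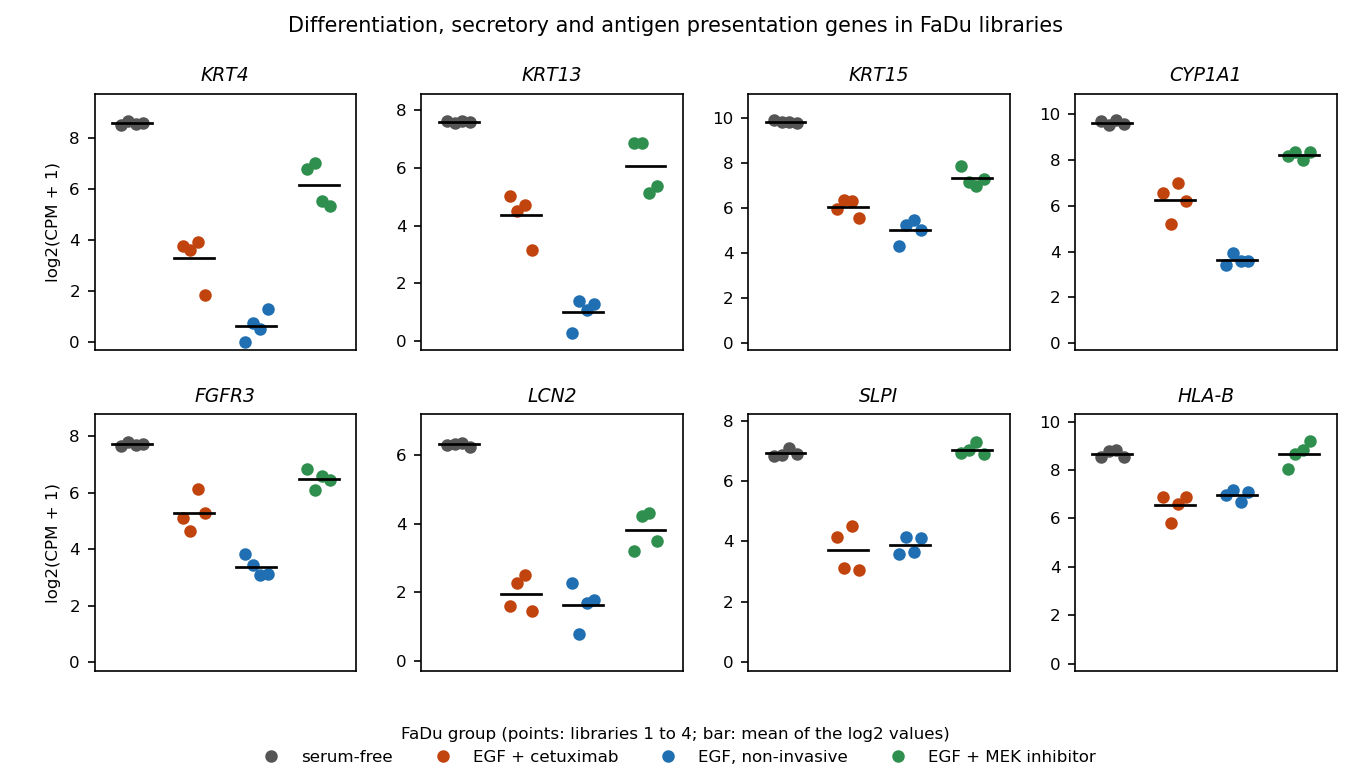
Levels of 8 differentiation, secretory and antigen presentation genes in single FaDu libraries of 4 groups, on a log2 scale of CPM plus 1, with points for libraries and bars for group means. KRT4, KRT13, KRT15, CYP1A1 and FGFR3 with cetuximab lie between serum-free and non-invasive EGF cells, and LCN2, SLPI and HLA-B with cetuximab lie beside the non-invasive cells.

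Transcription factors of the squamous and epithelial programme were called lower in 13 of 28 cases and higher in 4. SOX2, a factor of squamous progenitors, stood at 4.69, 8.82, 9.64 and 4.30 CPM against 78.8, 82.3, 82.6 and 84.2 CPM (log2 difference -3.59 ± 0.29, adjusted p = 1.64e-10). NOTCH1, the receptor that promotes squamous differentiation, stood at 44.5, 23.9, 50.2 and 55.5 CPM against 275, 264, 289 and 284 CPM (log2 difference -2.66 ± 0.21, adjusted p = 1.39e-10). Both were several times higher in every serum-free library than in any cetuximab library. SOX9, a factor of progenitor cells, went up, at 152, 113, 62.5 and 105 CPM against 15.1, 12.0, 15.6 and 14.6 CPM (log2 difference 2.92 ± 0.22, adjusted p = 5.20e-11). The chromatin factor HMGA2 rose from 2.28 ± 0.620 to 33.1 ± 12.1 CPM (log2 difference 3.80 ± 0.32, adjusted p = 3.13e-10). TP63, the master factor of squamous epithelium, had -0.16 ± 0.24 and was not called (adjusted p = 0.629).

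Epithelial junction genes were called lower in 13 of 29 cases and higher in 3 (median -0.40), or higher in 5 without the third cetuximab library. DSC2, a desmosomal cadherin, stood at 40.5, 31.8, 40.0 and 43.5 CPM against 121, 139, 125 and 132 CPM (log2 difference -1.73 ± 0.15, adjusted p = 4.19e-10). DSC3, of the same family, stood at 32.6, 20.2, 31.3 and 35.6 CPM against 126, 112, 117 and 117 CPM (log2 difference -1.97 ± 0.16, adjusted p = 2.12e-10). Both were evenly low in the 4 cetuximab libraries. TJP3, a tight junction scaffold, fell from 22.6 ± 2.57 to 2.36 ± 0.756 CPM (log2 difference -3.22 ± 0.40, adjusted p = 2.74e-07). PKP2, a desmosomal plaque protein, rose from 18.8 ± 3.16 to 60.2 ± 10.0 CPM (log2 difference 1.68 ± 0.18, adjusted p = 2.08e-08). CDH1, encoding E-cadherin, had -1.01 ± 0.26 (adjusted p = 0.00363), and DSC2 was lower than in non-invasive cells too (-1.07 ± 0.15, adjusted p = 1.68e-05).

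Secreted defence proteins had the lowest median of the 31 lists. Of 38 genes of complement, the acute phase and mucosal secretion, 18 were tested, 13 were called lower and 0 higher, with a median of -3.56. LCN2, the siderophore-binding lipocalin, stood at 2.01, 3.78, 4.62 and 1.72 CPM against 78.4, 79.8, 81.1 and 74.9 CPM (log2 difference -4.71 ± 0.34, adjusted p = 1.74e-11). SLPI, an antiprotease of mucosal fluids, stood at 16.5, 7.56, 21.9 and 7.22 CPM against 112, 117, 135 and 117 CPM (log2 difference -3.16 ± 0.26, adjusted p = 3.80e-10). The 4 serum-free libraries agreed within a narrow range for these genes and the cetuximab libraries were all low. MUC1, a membrane mucin, stood at 15.9, 12.3, 13.9 and 11.9 CPM against 95.2, 103, 106 and 98.3 CPM (log2 difference -2.90 ± 0.25, adjusted p = 4.85e-10). C3, the central complement protein, fell from 23.5 ± 4.83 to 2.04 ± 0.778 CPM and CP, encoding ceruloplasmin, from 159 ± 7.40 to 5.03 ± 4.74 CPM (log2 differences -3.46 ± 0.38 and -4.84 ± 0.41, the latter -5.57 without the fourth cetuximab library). With the MEK inhibitor SLPI stood at 132 ± 16.5 CPM, C3 at 30.3 ± 7.59 CPM and CP at 142 ± 29.7 CPM. In that contrast 13 of 18 were called lower under cetuximab and 0 higher, with 8.54% of all genes called lower, whereas 1 was called lower and 1 higher against non-invasive EGF cells (2 higher without the fourth cetuximab library).

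Antigen presentation and interferon response genes were called lower in 24 of 36 cases and higher in 1 (OAS3), with a median of -1.15. HLA-B, a class I heavy chain, stood at 118, 54.8, 96.8 and 116 CPM against 372, 434, 458 and 366 CPM (log2 difference -2.07 ± 0.25, adjusted p = 7.88e-07). B2M, the light chain, stood at 909, 596, 751 and 612 CPM against 1917, 2024, 1973 and 1829 CPM (log2 difference -1.43 ± 0.14, adjusted p = 3.12e-09). HLA-E, which presents to natural killer cells, fell from 387 ± 17.9 to 127 ± 10.4 CPM (log2 difference -1.61 ± 0.15, adjusted p = 1.84e-09). Class I genes resemble each other, so reads may be split among them. Of the interferon-induced genes MX1, an antiviral GTPase, stood at 1.12, 0.315, 1.21 and 0.860 CPM against 2.45, 27.9, 1.42 and 2.52 CPM (log2 difference -3.24 ± 0.83, adjusted p = 0.00331). The second serum-free library stood apart from the others for MX1, which was not called without it (-1.19, adjusted p = 0.154). XAF1, an apoptosis factor induced by interferon, had 0, 21.3, 0.284 and 0.252 CPM without EGF and no count with cetuximab, so the same library held nearly all of it. XAF1 was not called without that library (adjusted p = 0.26) or without the fourth cetuximab library (adjusted p = 0.0502). OAS3, an antiviral synthase, had 0.66 ± 0.23 (adjusted p = 0.0224) and lost its call without the first or the second cetuximab library (adjusted p of 0.0872 and 0.0531) or the third serum-free one (adjusted p = 0.0628). With the MEK inhibitor HLA-B stood at 425 ± 132 CPM and MX1 at 15.1 ± 6.80 CPM, and 33 of 36 genes were called lower and 0 higher under cetuximab (median -1.96). Against non-invasive EGF cells 11 were lower and 0 higher (5 lower without the third cetuximab or the fourth non-invasive library), with HLA-B at 126 ± 19.3 CPM (-0.38 ± 0.24, adjusted p = 0.392).

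Cytokines moved both ways, 3 of 17 called higher and 5 lower, or 47.1% called, a share close to the 43.8% of all genes. IL1B, encoding interleukin 1 beta, stood at 109.5, 85.7, 33.5 and 48.3 CPM against 12.7, 9.38, 9.36 and 10.8 CPM (log2 difference 2.72 ± 0.42, adjusted p = 4.96e-05). IL1A, of the same family, stood at 93.2, 41.6, 29.1 and 37.1 CPM against 13.9, 11.03, 7.38 and 10.8 CPM (log2 difference 2.23 ± 0.37, adjusted p = 5.37e-05). Both interleukins were highest in the first cetuximab library. NFKBIA, an inhibitor and target of NF-kappa B, fell from 830.1 ± 12.3 to 374 ± 127 CPM (log2 difference -1.15 ± 0.25, adjusted p = 7.77e-04). IL32 was called lower (log2 difference -3.35 ± 0.88, adjusted p = 0.00425), but its serum-free mean rested on the second library (3.27, 29.6, 2.27 and 2.77 CPM), and its groups overlapped at 0.670, 2.84, 0.603 and 0.172 CPM with cetuximab. Without that library the difference was -1.52 (adjusted p = 0.0994), and without the second cetuximab library -4.31. IL1RL1, the interleukin 33 receptor, stood at 7.30 ± 7.20 CPM with cetuximab and 124 ± 39.2 CPM in non-invasive EGF cells (cetuximab minus non-invasive -4.21 ± 0.55, adjusted p = 8.49e-05, and -4.88 without the second cetuximab library). INHBA, a subunit of activin, stood at 1.91 ± 1.61 against 82.3 ± 38.8 CPM (-5.44 ± 0.62, adjusted p = 1.74e-05, and -6.24 without the first cetuximab library).

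Lysosome and autophagy genes were called lower in 16 of 23 cases and higher in 2 (median -0.72). CTSD, encoding cathepsin D, stood at 219.7, 248, 243 and 176 CPM against 656, 703, 676 and 679.8 CPM (log2 difference -1.62 ± 0.12, adjusted p = 6.05e-11). CTSS, encoding cathepsin S, stood at 3.80, 1.58, 4.02 and 4.99 CPM against 56.0, 68.0, 57.0 and 59.99 CPM (log2 difference -4.002 ± 0.35, adjusted p = 5.36e-10). PSAP and GRN, encoding prosaposin and progranulin, fell from 912 ± 46.6 to 435 ± 16.5 CPM and from 199.9 ± 5.47 to 75.4 ± 12.4 CPM (log2 differences -1.07 ± 0.10 and -1.41 ± 0.13). NPC1, a cholesterol exporter, was called higher with 0.53 ± 0.16 (adjusted p = 0.00753), as was GLA, a lysosomal galactosidase, with 1.64 ± 0.61 (adjusted p = 0.0312). GLA lost its call without the fourth cetuximab library or the first or the fourth serum-free library (adjusted p of 0.12, 0.0842 and 0.0982).

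Other receptor kinases were called lower in 8 of 20 cases and higher in 6. FGFR3, a receptor for fibroblast growth factors, stood at 33.3, 24.3, 69.1 and 37.7 CPM against 203, 223, 205 and 213 CPM (log2 difference -2.35 ± 0.27, adjusted p = 3.00e-07), and non-invasive EGF cells had 9.64 ± 2.73 CPM (cetuximab minus non-invasive 2.10 ± 0.30, adjusted p = 5.56e-05). INSR, the insulin receptor, fell from 47.1 ± 4.13 to 9.88 ± 3.73 CPM and DDR1, a collagen receptor, from 481 ± 3.62 to 229.5 ± 15.5 CPM (log2 differences -2.22 ± 0.33 and -1.07 ± 0.12). MET, the receptor of hepatocyte growth factor, had -0.04 ± 0.13 and AXL 0.93 ± 0.25, of which only AXL passed (adjusted p of 0.808 and 0.00496).

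The classic targets of the aryl hydrocarbon receptor, a sensor of small aromatic molecules, were called lower. CYP1A1, a detoxifying oxidase, stood at 93.6, 36.2, 125 and 72.9 CPM against 830.1, 744, 844 and 754 CPM (log2 difference -3.27 ± 0.30, adjusted p = 7.68e-08). CYP1B1, a related oxidase, stood at 49.2, 41.6, 62.1 and 50.9 CPM against 188, 194, 188 and 222 CPM (log2 difference -1.95 ± 0.21, adjusted p = 2.92e-08). Non-invasive EGF cells had 11.4 ± 1.96 and 17.9 ± 3.72 CPM, below the cetuximab cells (cetuximab minus non-invasive 2.85 ± 0.33, adjusted p = 1.49e-05, and 1.51 ± 0.22, adjusted p = 4.18e-05). The whole list of NRF2 and aryl hydrocarbon receptor targets held 4 higher and 9 lower calls among 21, and 7 of them were higher than in non-invasive cells.

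YAP/TEAD targets and TGF-beta response genes had no common direction. Of 18 YAP/TEAD targets 5 were higher and 7 lower. F3, encoding tissue factor, stood at 686, 355, 462 and 696 CPM against 56.0, 44.1, 54.8 and 41.3 CPM (log2 difference 3.49 ± 0.27, adjusted p = 2.30e-09), and at 615 ± 37.0 CPM in non-invasive EGF cells (difference -0.16 ± 0.24, adjusted p = 0.76). CCN2, the matricellular protein CTGF, stood at 114, 46.6, 49.6 and 90.8 CPM against 300.3, 271, 306 and 237 CPM (log2 difference -1.88 ± 0.28, adjusted p = 1.71e-05). In the TGF-beta list 3 of 17 were higher and 5 lower, or 47.1% called, a share close to the 43.8% of all genes. TGFB2, encoding the ligand TGF-beta 2, fell from 8.67 ± 1.13 to 0.662 ± 0.245 CPM and ID3, a BMP target, from 25.4 ± 5.50 to 4.39 ± 2.09 CPM (log2 differences -3.59 ± 0.59 and -2.49 ± 0.33). Ion and water transport genes were higher in 3 and lower in 6 of 15 cases, and higher in 1 without the second serum-free library. SCNN1A, a subunit of the epithelial sodium channel, fell from 53.4 ± 5.12 to 23.5 ± 5.33 CPM and KCNK1, a potassium channel, rose from 49.1 ± 7.24 to 95.1 ± 35.4 CPM (log2 differences -1.18 ± 0.26 and 0.96 ± 0.22).

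**Figure D4:**
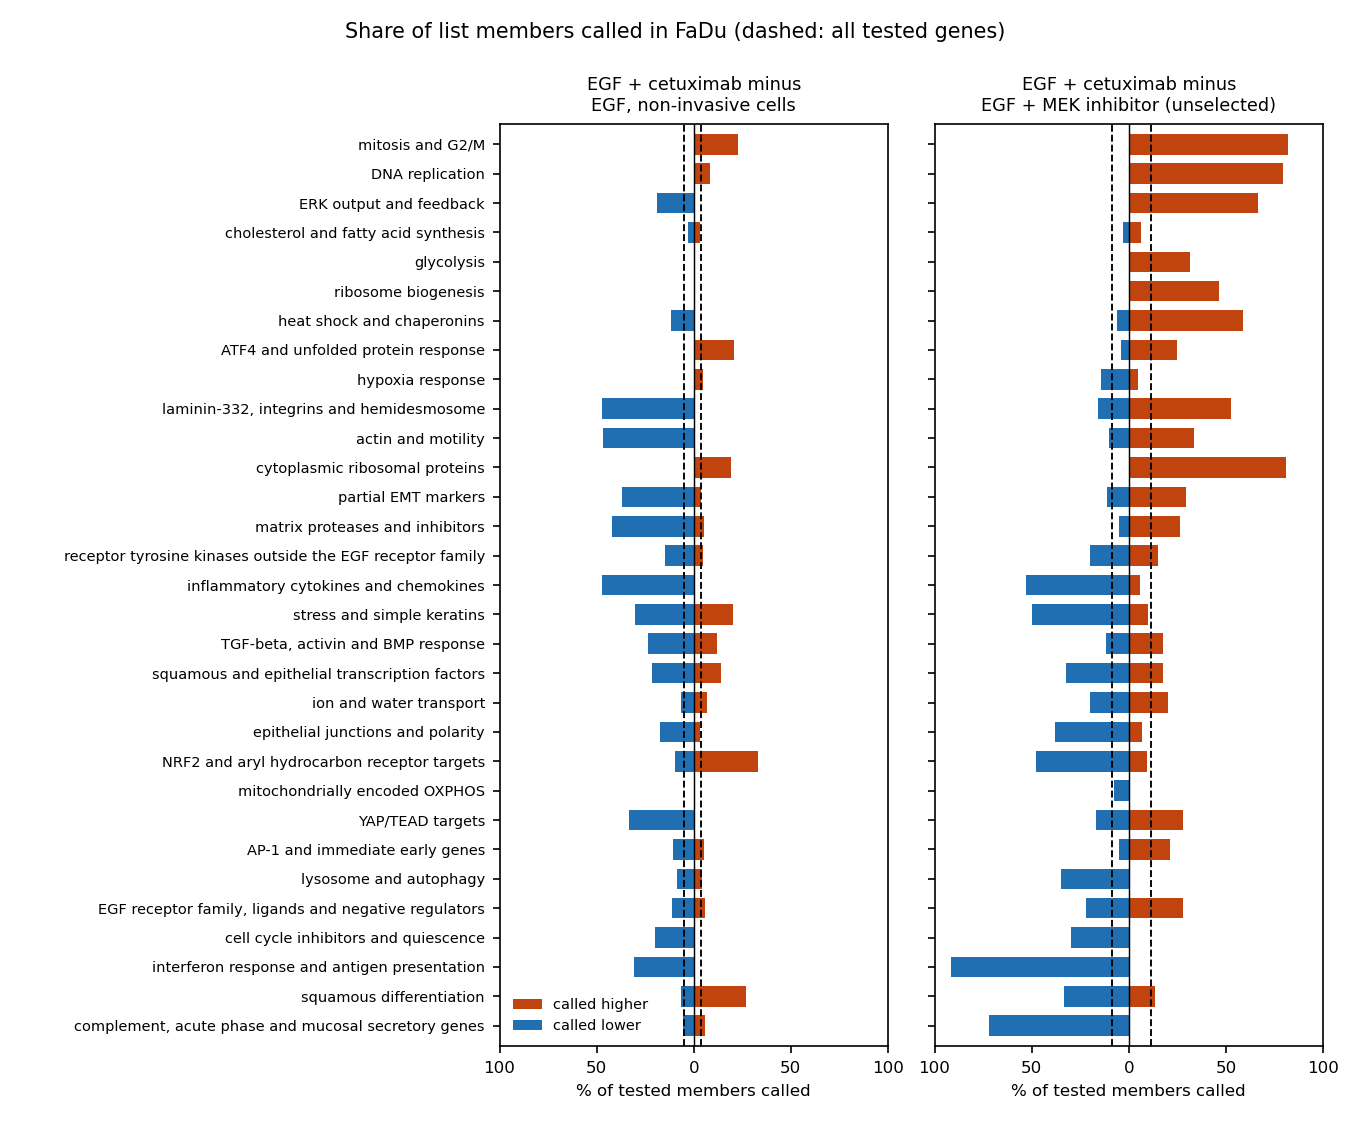
Share of tested members of each of 31 gene lists called higher (right) or lower (left) in cetuximab cells, with 1 panel against non-invasive EGF-treated cells and 1 against cells with EGF plus the MEK inhibitor. Dashed lines give the shares over all tested genes, 3.64% and 4.93% in the first panel and 11.2% and 8.54% in the second. Actin, laminin and protease lists extend to the left in the first panel, and the interferon list extends farthest to the left in the second.

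Over all genes the cetuximab cells differed from serum-free cells in 43.8%, from MEK inhibitor cells in 19.7% and from non-invasive EGF cells in 8.56%. The first 2 contrasts set unselected samples against each other and the last sets unselected against non-invasive cells. The number of called genes in the last contrast moved with single libraries. It was 441 higher and 598 lower with all libraries, 222 and 387 without the third cetuximab library, and 571 and 773 without the second. Without the third non-invasive library 253 were higher. With the second cetuximab library and 2 others of FaDu that stood apart from their groups left out (the first with the MEK inhibitor and the second of invasive cells), 971 were higher and 1170 lower. The same refit called 1048 higher and 945 lower against the MEK inhibitor, fewer in all than against non-invasive cells. So the order of the MEK inhibitor and non-invasive shares depended on these libraries. Lists with many lower calls against non-invasive cells were actin (14 of 30), partial transition (10 of 27), laminin and integrins (9 of 19), proteases (8 of 19) and cytokines (8 of 17), while no glycolysis or ribosome biogenesis gene was called in either direction, and at most 1 of either list in a direction with any 1 library left out. The partial transition list had 5 lower calls without the third cetuximab or the fourth non-invasive library. Without the 3 libraries that stood apart 22 actin and 3 glycolysis genes were called lower. Against the MEK inhibitor 47 of 58 ribosomal protein genes were higher under cetuximab and 0 lower.

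In Kyse30 the same pair of groups differed in fewer genes, 1222 higher (9.84%) and 741 lower (5.97%) of 12420. The difference between the lines was tested itself as the Kyse30 effect minus the FaDu effect, and 2353 genes (18.9%) passed, 1284 above 0 (10.3%) and 1069 below (8.61%). Of the ERK output list 5 of 20 genes were called higher in Kyse30 (3 without its first or the second cetuximab or second serum-free library, 2 without the third serum-free library of the line), and 13 had a smaller effect there than in FaDu by the test of the difference against 1 with a larger one. CPM values in this paragraph and the next were scaled across the 16 libraries of both lines. ETV4 stood at 149, 76.5, 87.9 and 87.0 CPM with cetuximab and 58.1, 62.0, 54.4 and 57.6 CPM without EGF in Kyse30, against 42.5, 41.7, 38.4 and 29.6 CPM with cetuximab in FaDu, so that every serum-free Kyse30 library was above every cetuximab library of FaDu. The Kyse30 effect was 0.78 ± 0.23 (adjusted p = 0.0243) and the difference -5.16 ± 0.48 (adjusted p = 1.19e-07), or -5.86 without the first serum-free FaDu library. PHLDA1 stood at 205, 431, 383 and 423 CPM against 296, 290, 318 and 306 CPM in Kyse30 (effect 0.25 ± 0.19, adjusted p = 0.386, difference -2.67 ± 0.28, adjusted p = 6.13e-07). DUSP6 went from 48.1 ± 9.50 to 121 ± 72.4 CPM (effect 1.33 ± 0.35, adjusted p = 0.0149, difference -2.11 ± 0.52, adjusted p = 0.00818). EGFR fell in Kyse30 too, from 3537 ± 77.7 to 2141 ± 412 CPM (effect -0.72 ± 0.14, adjusted p = 9.22e-04, difference 0.67 ± 0.19, adjusted p = 0.0167).

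For most cell cycle genes the effect in Kyse30 was smaller. Of 22 mitosis genes 21 were called higher in Kyse30 and 18 had a smaller effect than in FaDu, and of 24 replication genes 7 were called higher and 21 had a smaller effect. CDC6 stood at 37.7, 47.3, 29.2 and 28.05 CPM against 12.8, 5.49, 9.07 and 17.1 CPM in Kyse30 (effect 1.70 ± 0.30, difference -2.73 ± 0.45, adjusted p = 1.71e-04). CDC20 stood at 46.3, 53.5, 34.8 and 39.6 CPM against 18.8, 3.23, 18.9 and 6.40 CPM (effect 1.89 ± 0.35, difference -2.80 ± 0.52, adjusted p = 7.33e-04). Some genes went opposite ways. SOX2 rose in Kyse30 from 48.1 ± 21.2 to 145 ± 52.3 CPM (effect 1.60 ± 0.32, adjusted p = 0.00216, difference 5.18 ± 0.48, adjusted p = 6.13e-07). KRT15 rose from 163 ± 15.97 to 267 ± 104 CPM (effect 0.71 ± 0.20, adjusted p = 0.0159, difference 4.47 ± 0.29, adjusted p = 1.11e-09). F3, which rose in FaDu, fell from 103 ± 43.5 to 48.7 ± 14.002 CPM (effect -1.07 ± 0.29, adjusted p = 0.0173, difference -4.58 ± 0.42, adjusted p = 6.98e-07). GAL, among the widest rises of FaDu, stood at 1.08, 5.89, 2.13 and 4.89 CPM against 8.25, 3.23, 3.94 and 5.97 CPM in Kyse30 (difference -5.97 ± 0.60, adjusted p = 3.15e-07). FST stood at 11.4, 15.8, 4.69 and 6.95 CPM against 5.63, 5.17, 9.86 and 4.69 CPM (difference -5.69 ± 0.87, adjusted p = 2.19e-04, or -6.43 without the first serum-free FaDu library). Groups overlapped in Kyse30 for both genes. CALB2 rose in both, in Kyse30 from 18.2 ± 7.05 to 135 ± 51.6 CPM (effect 2.90 ± 0.30, adjusted p = 1.96e-06, difference -5.38 ± 0.64, adjusted p = 6.44e-06, or -6.19 without the third serum-free FaDu library). FSCN1 rose in both too, in Kyse30 from 53.1 ± 2.72 to 179 ± 37.2 CPM (effect 1.76 ± 0.15, adjusted p = 9.05e-08, difference -0.86 ± 0.21, adjusted p = 0.00556).

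The widest called line differences were taken among coding genes with a mean of at least 10 CPM in a group. Of the 10 genes taken, 5 in each direction, 7 had no count in a group, so their fold between lines is not given. HAS3, a hyaluronan synthase, had no count in serum-free FaDu and 10.95, 11.3, 3.21 and 4.64 CPM with cetuximab, at least 35.7-fold higher. In Kyse30 it stood at 21.0, 16.1, 11.04 and 4.69 CPM without EGF and 7.86, 31.3, 20.9 and 44.3 CPM with cetuximab (adjusted p of the difference 0.00352). UBASH3B, a phosphatase that binds ubiquitin, had no count in serum-free FaDu and 6.48, 13.2, 5.22 and 3.61 CPM with cetuximab, at least 33.8-fold higher, while all Kyse30 libraries held some (adjusted p of the difference 0.00163). PAPSS2, at 0 counts in FaDu with cetuximab, stood at 14.4, 8.95, 8.53 and 5.40 CPM in Kyse30 with cetuximab and 1.50, 0, 0.789 and 5.97 CPM without EGF (adjusted p of the difference 1.06e-05). PLAC8, a small cysteine-rich protein, stood at 2.07, 1.91, 2.89 and 3.57 CPM in FaDu without EGF and at 0 with cetuximab. In Kyse30 it rose from 4.501, 2.26, 0.789 and 0 CPM to 11.4, 20.02, 15.8 and 18.5 CPM (adjusted p of the difference 3.07e-05). The remaining genes were NEURL1, GAL and FST, given above, and ZBED2, OLR1 and CERS4.

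**Figure D5:**
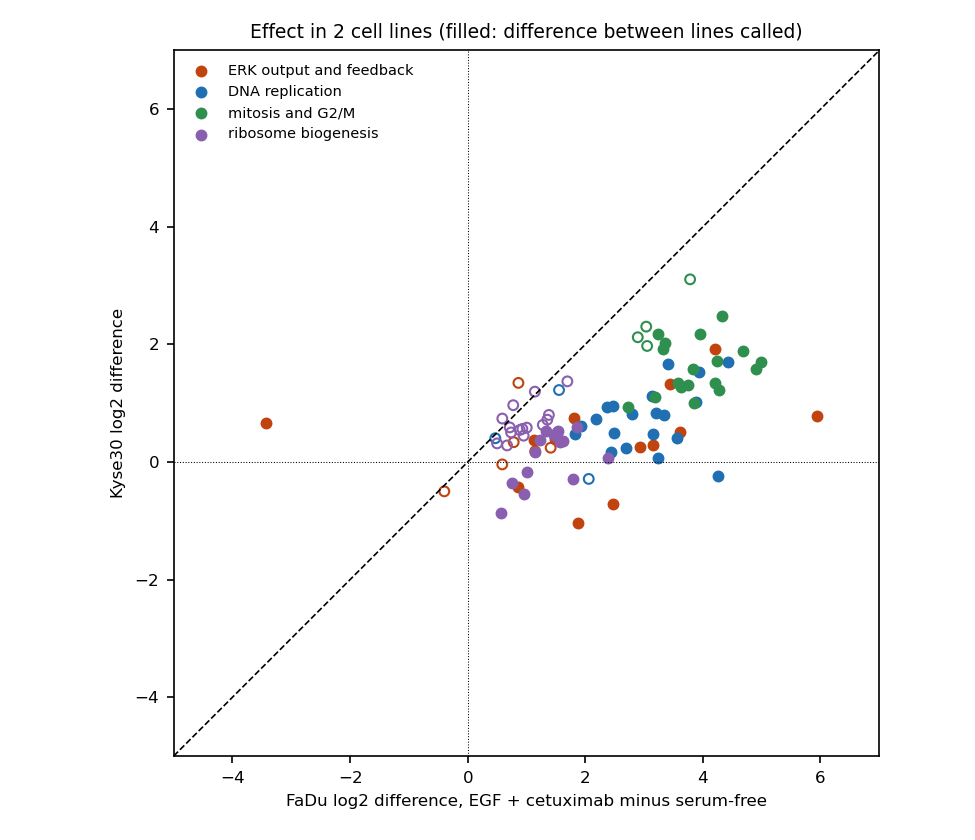
Log2 difference of EGF plus cetuximab minus serum-free in FaDu (x axis) and Kyse30 (y axis) for members of 4 gene lists, from 1 fit over 16 libraries, with filled points where the difference between lines was called and the diagonal as a dashed line. SPRY4 is left out because FaDu had no count of it without EGF. Most mitosis and replication genes lie right of 0 and below the diagonal.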

How the data were processed

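The deposited table gives read counts per gene for 40 libraries of 3' end sequencing, and per the submitters' processing notes the authors used STAR, HTSeq and GRCh38 to make them. The sources used here give no versions, annotation, strand setting or selection of genes, and the labels' protocols name no molecular identifiers, so intervals cover counting error only. The table holds 12655 genes.

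From these counts, edgeR 4.0.16 (R 4.3.3) fitted the 20 FaDu libraries together, with TMM scaling, its default low-count filter by group, a robust quasi-likelihood F test and Benjamini-Hochberg adjustment over 12131 genes (15 residual degrees of freedom). A gene was called at an adjusted p under 0.05. The fit gave each gene 1 spread for all 5 FaDu groups, although the cetuximab replicates differed more among themselves than the serum-free ones. An adjusted p in the text comes from this fit or from the fit of both lines. Where a left-out library or a replicate block is named, it comes from a refit with that change. The difference between lines came from 1 fit of 16 libraries. CPM used the TMM sizes. A log2 difference carries its SE, and a group mean its SD over 4 libraries. A group without counts was set to a floor of 3 counts over the group, and ratios with 1 to 3 counts carry exact counting intervals. Replicate numbers were not used to pair the samples in the main fit. On simulated counts for the main comparison (12131 genes, 100 changed at each size), 56% of 2-fold and 83% of 4-fold changes were called. Far fewer genes changed there than were called in the data. The adjustment is stricter in that case, so these shares need not hold for the data.

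The samples and 31 gene lists were chosen with earlier results of these data known. Genes named are drawn from a fixed set of receptor, ligand, feedback and ERK output genes and from rules on the fits. A first rule took the 12 called coding genes with the largest log2 difference each way. These had to have a mean of at least 10 CPM in the higher group and no overlap of the groups. Another took up to 4 called members of smallest p per list, with each direction present. For the lines, the 5 widest called differences each way were taken among coding genes with a mean of at least 10 CPM in a group. The most abundant uncalled list members were added. A few genes that these rules name are not reported here. AXL, BTC, C3, CDH1, CDKN1A, CP, EGR1, FOS, GLA, HK2, HMGA2, HSPA1B, IL1RL1, INHBA, KRT5, LRIG3, MET, MKI67, MMP1, MX1, MYC, NRG4, OAS2, PLAUR, SOCS3, TP63 and XAF1 were chosen after their values were seen, and the genes given for a promoter motif were named by the match. KRT5 stands outside the counts of named genes given below. Promoter sequences are from RefSeq. Alternatives were other scaling and tools (DESeq2 1.42.0, limma-voom 3.58.1), filters, samples, a replicate block, a fold threshold and left-out libraries. Leaving out the 3 libraries that stood apart was added after seeing the data.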

Additional observations from a re-analysis of the deposited data

Results flagged for a closer look

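Of 356 groups of 4 libraries examined for the named genes and library measures, 26 held 1 library far from the other 3 by Dixon's criterion, and chance gives about 5% of groups. The second serum-free library was the high one for MX1 (27.9 CPM), XAF1 (21.3 CPM), OAS2 (9.62 CPM) and IL32 (29.6 CPM), of which MX1, XAF1 and OAS2 are interferon-induced, and for CDKN1C (40.8 CPM) and MCM6 (26.0 CPM). It was the low one for HBEGF (13.4 CPM) and EGR2 (19.9 CPM). In the third serum-free library EPHA2 was high at 17.0 CPM, MUC16 was high at 21.8 CPM and SCNN1A low at 45.7 CPM. In the fourth, BIRC5 was low at 4.03 CPM, SHISAL1 and MMP1 stood at 0.504 CPM, and NEURL1 and SERPINB2 at 0.252 CPM, where values this small rest on 1 or 2 counts. Among the cetuximab libraries the second was high for FSCN1 (337 CPM), MKI67 (737 CPM) and POLA1 (60.8 CPM) and low for TP63 (23.0 CPM). The first was high for NFKBIA (563 CPM), PLAUR (58.3 CPM), PCNA (196 CPM), NPM1 (675 CPM) and SERPINB2 (0.447 CPM), and the fourth was high for FOS (156 CPM).

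The test of the Kyse30 effect minus the FaDu effect of EGF plus cetuximab passed for each of the 13 genes given with a log2 difference of effects. The log2 difference of effects was below 0 for GAL (-5.97), FST (-5.69), CALB2 (-5.38), ETV4 (-5.16), F3 (-4.58), CDC20 (-2.80), CDC6 (-2.73), PHLDA1 (-2.67), DUSP6 (-2.11) and FSCN1 (-0.86). It was above 0 for SOX2 (5.18), KRT15 (4.47) and EGFR (0.67). Several of these genes were chosen for the width of this difference, so their number is a description.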

How the results depend on the processing

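No gene called in the comparison of EGF plus cetuximab with serum-free cells was called in the opposite direction under any alternative. Of 175 named genes 163 were called, and 142 of these kept the call under every alternative that tested them. In the comparison with non-invasive cells 15 of 48 did, in that with the MEK inhibitor 69 of 129, and for the line difference 11 of the 13 given with a value. No named call reversed, and sign changes of values uncalled in both fits were not counted. A test against a fold of 1.5, which asks for more by construction, left 1146 higher and 1184 lower genes against serum-free, 43 and 143 against non-invasive cells, 199 and 282 against the MEK inhibitor, 651 and 395 for the line difference, and 276 and 129 in Kyse30. With all 40 libraries in 1 fit, 1828 genes were higher and 1798 lower against serum-free, 109 and 268 against non-invasive cells and 518 and 492 against the MEK inhibitor, 570 line differences were below 0, and 360 genes were lower in Kyse30. Fits of only the groups compared gave 632 and 598 against the MEK inhibitor. The cause of these lower counts was not tested. Against non-invasive cells, 971 genes were higher and 1170 lower when the 3 libraries apart from their groups were left out. With 1 library left out at a time, the counts ran from 2432 to 2724 higher and 2206 to 2496 lower against serum-free, from 222 to 571 and 387 to 773 against non-invasive cells (lowest without the third cetuximab library, highest without the second), from 1050 to 1328 and 884 to 1110 against the MEK inhibitor, from 1022 to 1341 and 820 to 1155 for the line difference, and from 876 to 1251 and 541 to 753 in Kyse30. The mitochondrial share with cetuximab minus serum-free ran from -7.73 to -6.42 percentage points.

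With the replicate number as a block, 2662 genes were higher and 2559 lower against serum-free. Same-numbered cetuximab and serum-free libraries had correlations of deviations of 0.047, 0.151, 0.028 and -0.027, and not every library correlated best with its own number. These values cannot decide whether samples of the same number shared a culture or batch. Among the named genes the block changed 1 call in this comparison, EGR1 (-0.62, adjusted p = 0.0123 in edgeR). At these depths a gene near 1 CPM rests on a few counts per library, which limits the values given for such genes.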
